A study of Mus musculus with 7 samples.

Results

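The genes described here were higher under the metal chelator DTPA at 24 h of erythroid differentiation, although differentiation by itself left them near their starting level. There were 127 of them among the 55367 gene symbols measured, 0.229%. They were chosen on TPM, the number of reads of a gene scaled by its length and by the total of the library. A gene had to reach a mean of at least 5 TPM in the 3 DTPA libraries. Its control mean had to lie within 0.7 of the 0 h value on the scale of log2(TPM + 1), and its DTPA mean at least 0.8 above the control mean on the same scale. No DTPA library was allowed to overlap a control library. Uros, Alpk3, Cpz, Mgarp and Gip were set aside, of which Alpk3 alone met the rule.

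The libraries came from G1E-ER4, a single line of mouse erythroid progenitors without working GATA1 of its own, to which a fusion of GATA1 with the hormone-binding part of the estrogen receptor was added, so that estradiol switches GATA1 on. The cells were sampled as 3 DTPA cultures at 24 h, with 100 nM β-estradiol and 50 µM DTPA added together at the start, 3 control cultures at 24 h, with 100 nM β-estradiol alone, and 1 undifferentiated culture at 0 h. All grew in serum with erythropoietin and medium conditioned by cells that make Kit ligand. The cultures at 24 h are labelled as biological replicates and the 0 h culture stands alone, so every statement about differentiation rests on 1 library on that side.

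Zinc holds together the fingers of many transcription factors and serves many enzymes as a cofactor. DTPA is a chelator that binds zinc outside the cell and other metals as well. GATA1 drives red cell and megakaryocyte maturation and is known to work against PU.1, the myeloid and lymphoid factor encoded by Spi1. Red cell precursors normally shut down much of the signalling, adhesion and cytoskeletal equipment that other blood cells keep. Many of the genes below encode parts of such equipment, but the rule kept only genes near their 0 h level in the controls. Of the 127, 68 were above 0 h there and 58 below.

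The libraries held an estimated 19.78 to 21.19 M assigned reads under DTPA, 17.67 to 18.6 M in the controls and 17.59 M at 0 h. The 12 erythroid marker genes summed to 62871 to 81057 TPM under DTPA, 52286 to 56466 TPM in the controls and 10379 TPM at 0 h. Of the 12, all tested, 3 were higher under DTPA in limma (Hbb-bs, Hbb-bt and Alas2) and 7 lower, among them Slc4a1, Hba-a2, Epb42, Epor and Hba-a1. Over all tested genes, 21.7% were higher and 36.4% lower. The anion exchanger gene Slc4a1 averaged 73.0 ± 2.81 TPM under DTPA and 770 ± 3.71 TPM in the controls (SD, n = 3 each), with 45.63 TPM at 0 h. Of 15 megakaryocyte markers, 5 were high enough to test, and all 5 were higher under DTPA in limma, against 21.7% of all tested genes. Among the 5 was the member Itgb3, whose higher DTPA values the rule required. Ppbp, Gp1bb, Gp6, Vwf and Clec1b were at 0 in all 6 libraries at 24 h. Of the 5, Gp9 did not pass when DTPA replicate 3, control replicate 2 or control replicate 3 was left out. Nor did Gp9 pass when no filter was set (limma adjusted p = 0.0531 to 0.0713 in these settings). The 15 markers, Itgb3 included, summed to 217 to 229 TPM under DTPA, 124 to 126 TPM in the controls and 93.7 TPM at 0 h. Of 13 neutrophil and monocyte markers 8 were at 0 at 24 h, and the sum was 1.27 to 2.79 TPM under DTPA against 3.09 to 3.29 TPM in the controls. Mast cell and basophil markers summed to 2.27 to 3.14 TPM under DTPA and 0.32 to 0.70 TPM in the controls, with 6 of 9 at 0 at 24 h. Of 12 lymphoid markers 11 were at 0, with sums of 2.56 to 2.82 TPM under DTPA and 0.23 to 1.06 TPM in the controls. Endothelial markers summed to at most 0.24 TPM and fibroblast markers to at most 0.03 TPM at 24 h. The part of these markers in the results below was not tested. In bulk RNA, a change in the share of cells of a kind and a change in RNA per cell cannot be told apart.

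The rule narrowed the table in steps. There were 8520 symbols with a DTPA mean of at least 5 TPM, 3967 of these were flat between the control mean and 0 h, and 134 of these stood at least 0.8 above control under DTPA. Overlap between libraries removed 6 of the 134, all of them noncoding or predicted genes at low level, among them Vaultrc5 and Mir7666. Because the contrast of DTPA with control chose the genes, their differences are given as a description. In the limma fit, 21.7% of 11147 genes stood higher under DTPA and 36.4% lower, at an adjusted p under 0.05, and 24.7% stood higher with no overlap of libraries. All 127 member genes entered that fit and 126 passed its threshold, which the rule all but fixed. The exception was the processed pseudogene Gm5628, with 3.28, 9.10 and 4.38 TPM under DTPA and 2.20, 2.94 and 2.61 TPM in the controls.

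**Figure D1:**
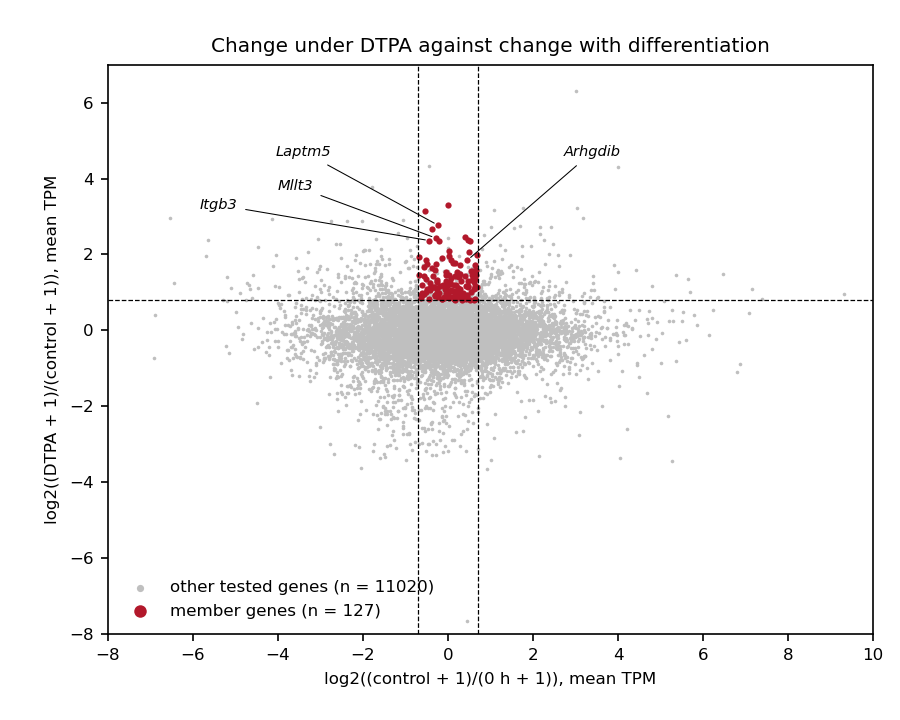
Each point is a tested gene, with the log2 ratio of control at 24 h to 0 h across the page and the log2 ratio of DTPA to control at 24 h up the page, both on means of TPM with 1 added. Red points are the 127 member genes and grey points the other 11020; dashed lines mark the window of 0.7 and the minimum of 0.8, and grey points inside the frame they bound missed the level or the overlap condition or were set aside.

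The 100 protein-coding members sat between 0.80 and 2.77 above control on the log2 scale. Over all 127 members the median log2 ratio of DTPA to control was 1.17, against -0.09 over all tested genes. The median log2 ratio of control to 0 h was 0.03, against -0.10 over all tested genes, with 68 members above 0 h in the controls, 58 below and 1 at 0 in all 4 libraries. The median DTPA level was 25.1 TPM, the median control level 10.05 TPM and the median 0 h level 11.2 TPM. A ratio of at least 1 on the log2 scale was reached by 88 members and a ratio of at least 2 by 12. Levels spread widely, with 27 members at 100 TPM or more under DTPA and 30 below 10 TPM. The lowest DTPA library stood above the highest control library by a median factor of 2.08, and by a factor under 1.2 in 3 members, Gm10163, Gm44954 and Gm5628.

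Together the members took 1.44%, 1.48% and 1.49% of all TPM in DTPA replicates 1, 2 and 3, against 0.564%, 0.556% and 0.562% in the control replicates and 0.541% at 0 h. A single gene, Arhgdib, made up 26.5% to 27.7% of that sum under DTPA, 19.2% to 20.6% in the controls and 14.9% at 0 h. DTPA replicate 3 held the highest value in 69 of the 127 members, where it did so in 41.2% of all tested genes. The median coefficient of variation among members was 6.58% in the DTPA libraries and 8.62% in the control libraries. Over all tested genes it was 6.65% in the DTPA libraries and 6.28% in the control libraries.

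**Figure D2:**
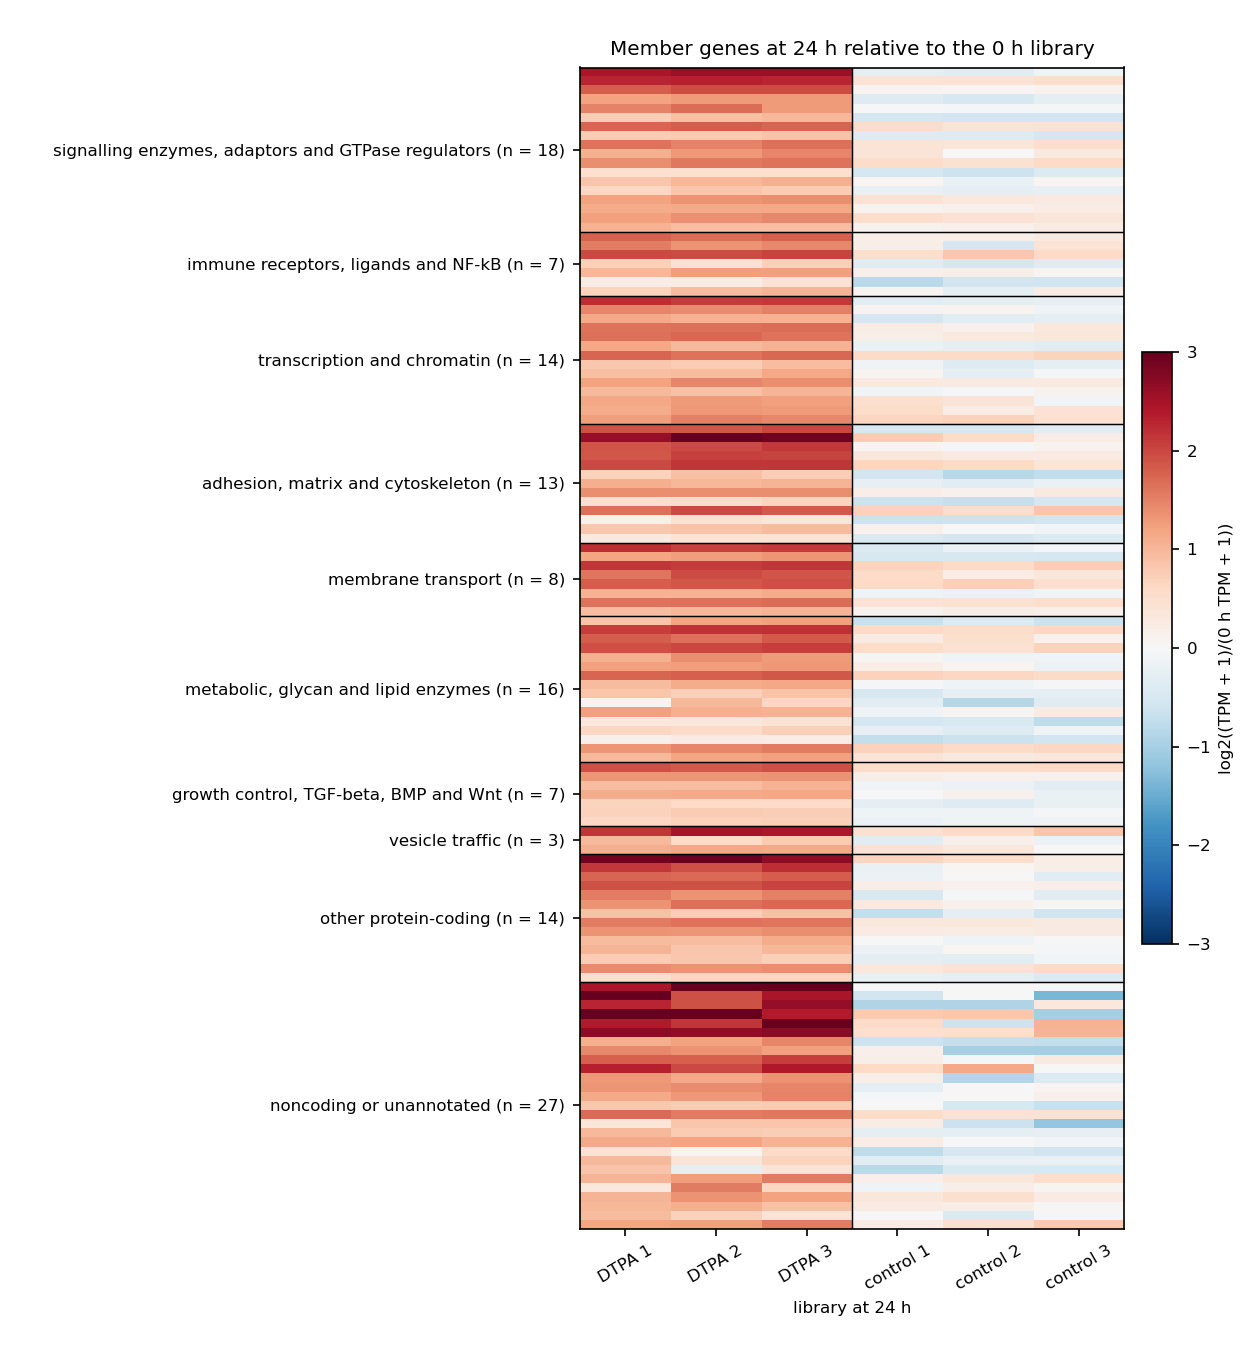
Rows are the 127 member genes, ordered by role and within a role by their log2 ratio of DTPA to control; columns are the 3 DTPA and 3 control libraries at 24 h. Colour gives log2 of TPM with 1 added relative to the 0 h library, cut off at -3 and 3, and the control columns stay near white because the rule kept genes within 0.7 of 0 h.

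The boundaries of the rule ran through a continuum. Just inside the level limit were Gm10163, Ece1 and Ap1s3 at 5.16, 5.18 and 5.20 TPM under DTPA, and just outside it H2bc8, S1pr1 and Gm44423 at 4.56, 4.50 and 4.47 TPM. Just inside the ratio limit were Zswim4, Gm4013 and Ppp3ca at 0.8021, 0.803 and 0.8036, and just outside it Nhej1, P4ha1 and Mst1 at 0.7975, 0.797 and 0.796. At the upper edge of the flat window Kifc2, Gm14221 and Gm30262 were in at 0.69, 0.69 and 0.66, while Lgals8, Gsn and Bbc3 were out at 0.75, 0.76 and 0.77. At the lower edge Layn, Gm43860 and Flt3l were in at -0.69, -0.68 and -0.64, while Stat5a, Nxpe4 and Irf2bpl were out at -0.71 each.

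Signalling enzymes, adaptors and GTPase regulators formed the largest coding group, with 18 members whose log2 ratios of DTPA to control ran between 0.80 and 2.77 around a median of 1.10. This and the other role groups were drawn up after the members were known. Laptm5 led it, a lysosomal membrane protein known in lymphocytes for lowering antigen receptors at the surface. Laptm5 had 564.63, 617.77 and 627.13 TPM under DTPA, 84.78, 82.65 and 94.88 TPM in the controls and 103.28 TPM at 0 h. The control libraries lay below the 0 h value and all DTPA libraries far above both, with a 6.90-fold difference of means at 24 h. The gene lies on chromosome 4, chr4:130913125-130936141 on the plus strand in GRCm38.

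Arhgdib, which encodes the GDP-dissociation inhibitor of blood cells that keeps small GTPases of the cytoskeleton inactive in the cytosol, was the most abundant member. It had 3953.41, 4093.17 and 3934.34 TPM under DTPA, 1085.58, 1082.04 and 1157.85 TPM in the controls and 806.4 TPM at 0 h. The DTPA libraries lay within a narrow band at 3.60 times the control mean, and the controls were above 0 h. Of its 1707 bp of exon, 136 bp overlap Pde6h on the other strand, a gene with means of 2.25 TPM under DTPA and 0.393 TPM in the controls.

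Several members act on phosphoinositides and diacylglycerol, the membrane lipids that carry receptor signals inward. Inpp5d encodes SHIP1, the blood cell phosphatase that removes the 5-phosphate from the product of PI3-kinase. It had 274.24, 302.79 and 298.98 TPM under DTPA, 80.94, 78.62 and 82.31 TPM in the controls and 76.81 TPM at 0 h. The controls and the 0 h library were almost level and the DTPA libraries stood 3.62-fold above the controls. Dapp1, an adaptor that binds the lipid SHIP1 makes, had 318.8, 325.54 and 332.15 TPM under DTPA, 158.85, 165.67 and 173.51 TPM in the controls and 147.83 TPM at 0 h.

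Dgkz encodes a kinase that turns diacylglycerol into phosphatidic acid. Its values were 359.15, 397.91 and 427.49 TPM under DTPA, 147.91, 143.78 and 142.82 TPM in the controls and 213.9 TPM at 0 h. Here the controls were below 0 h and the DTPA libraries above it. Plcg1, the phospholipase that makes diacylglycerol, had 16.25, 16.09 and 16.46 TPM under DTPA, 7.56, 6.98 and 8.19 TPM in the controls and 11.24 TPM at 0 h, the same order of the 3 groups at a lower level.

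Regulators of cytoskeletal GTPases were represented by an activator and an inhibitor at similar levels. Arhgef1, an exchange factor that acts downstream of G protein-coupled receptors, had 204.7, 224.45 and 232.13 TPM under DTPA, 118.49, 109.3 and 106.33 TPM in the controls and 87.49 TPM at 0 h. Arhgap45, a GTPase-activating protein of blood cells, had 280.37, 310.0 and 324.07 TPM under DTPA, 171.31, 160.92 and 152.61 TPM in the controls and 118.58 TPM at 0 h. In both genes every DTPA library exceeded every control, as the rule required, and the ratios of 0.98 and 0.91 were below the median of the group. Elmo3, Rasal1, Cdc42bpg and Madd, regulators or effectors of Rac, Ras, Cdc42 and Rab3, had log2 ratios of 1.05, 1.00, 0.99 and 1.01 at 5.23 to 36.1 TPM under DTPA.

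Tyrosine kinase signalling was covered by adaptors, a kinase and a phosphatase. Ptpre, a receptor-type tyrosine phosphatase, had 59.42, 62.24 and 62.72 TPM under DTPA, 19.18, 17.88 and 20.36 TPM in the controls and 25.23 TPM at 0 h. Grap, a Grb2-like adaptor, had 13.44, 15.48 and 11.49 TPM under DTPA, 4.13, 3.92 and 4.01 TPM in the controls and 4.15 TPM at 0 h. The adaptors Pag1, which brings the Src inhibitor Csk to the membrane, and Nck2, which links receptors to actin, had log2 ratios of 1.30 and 1.24, and the kinase gene Tec one of 1.16. The calcineurin subunit gene Ppp3ca, at 0.80, was the lowest of the group.

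**Figure D3:**
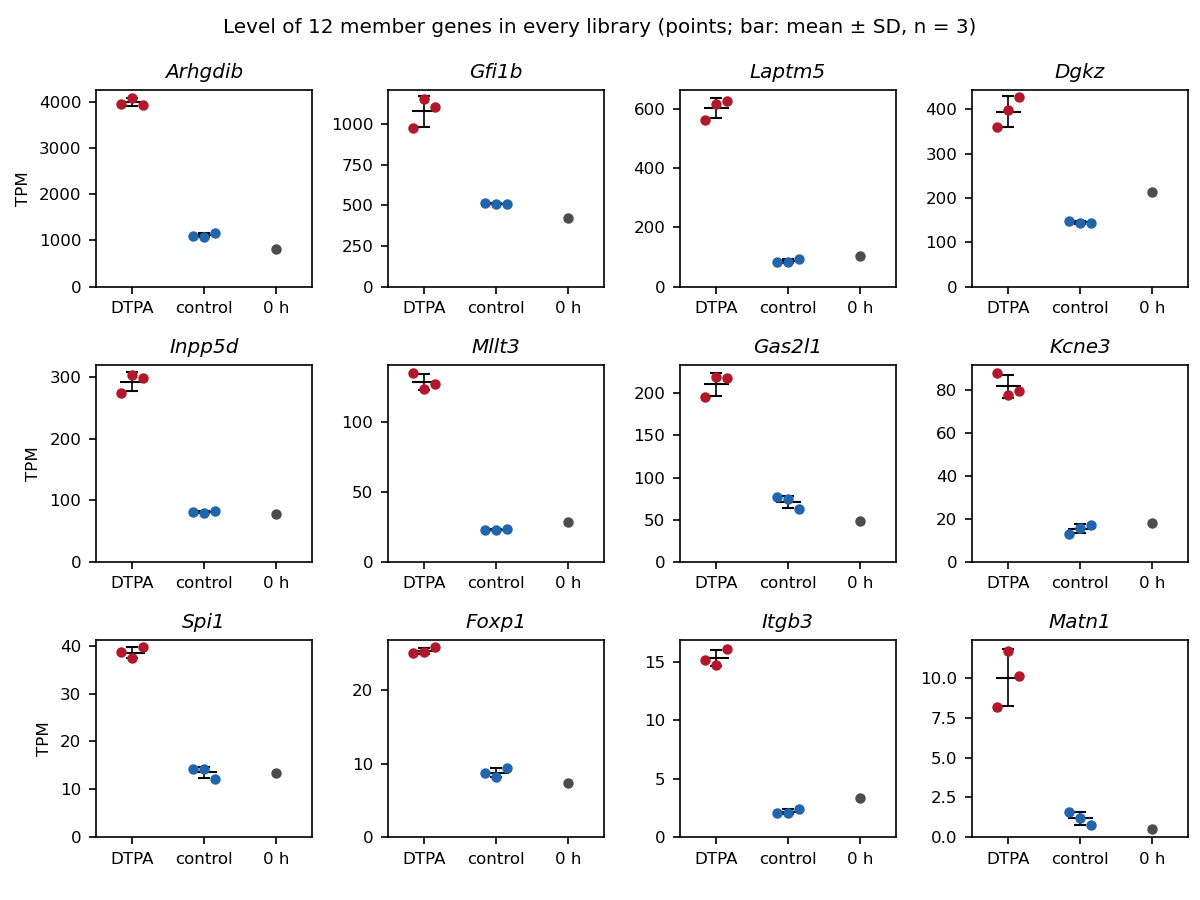
Each panel shows 1 member gene, with TPM from 0 upward and 3 DTPA, 3 control and 1 undifferentiated (0 h) library as points; bars give mean and SD (n = 3). In all 12 panels the lowest DTPA point lies above the highest control point, which the rule required. The 0 h point lies below all DTPA points, and the rule itself placed the DTPA mean above 0 h.

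Among 14 members of transcription and chromatin, Mllt3 stood out by size, with log2 ratios of the group between 0.80 and 2.43 around a median of 1.09. Mllt3 encodes AF9, a reader of acylated histones that recruits elongation factors. It had 134.7, 123.46 and 127.14 TPM under DTPA, 22.35, 22.97 and 23.67 TPM in the controls and 28.31 TPM at 0 h, a 5.58-fold difference of the means at 24 h. Gfi1b, a repressor needed for red cell and megakaryocyte maturation, was the most abundant. Its values were 972.29, 1152.78 and 1106.37 TPM under DTPA, 514.4, 508.26 and 507.95 TPM in the controls and 420.25 TPM at 0 h. The controls were almost level while the DTPA libraries spread more widely, with SDs of 93.7 TPM under DTPA and 3.64 TPM in the controls.

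Spi1, the gene of PU.1, had 38.7, 37.38 and 39.72 TPM under DTPA, 14.16, 14.25 and 12.19 TPM in the controls and 13.31 TPM at 0 h. The 0 h value fell within the range of the controls. Foxp1, a forkhead factor of lymphocytes and monocytes, had 25, 25.13 and 25.84 TPM under DTPA, 8.72, 8.14 and 9.34 TPM in the controls and 7.37 TPM at 0 h. Nr1d2, the heme-binding nuclear receptor REV-ERB beta, had 20.72, 21.66 and 20.33 TPM under DTPA, 6.81, 7.42 and 7.72 TPM in the controls and 5.91 TPM at 0 h. Spi1, Foxp1 and Nr1d2 were thus alike in the size of the difference, at 1.45, 1.44 and 1.40 on the log2 scale.

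Jund, the AP-1 subunit associated with quiescent cells, had 126.52, 137.06 and 133.77 TPM under DTPA, 78.51, 73.39 and 52.82 TPM in the controls and 56.1 TPM at 0 h. Control replicate 3 was low and close to 0 h, and 877 of the gene's 1668 bp of exon overlap Gm11175 on the other strand, which had means of 1.26 TPM under DTPA and 0.577 TPM in the controls. Zfp27 and Eid2, a zinc finger gene and an inhibitor of the coactivator p300, had log2 ratios of 1.44 and 1.33. The other members of the group were Usp3, which removes ubiquitin from histones, the methyl-CpG-binding gene Zbtb4, Thap3, Ints6l, Csrnp2 and Zswim4, with log2 ratios between 0.80 and 1.09.

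Promoters were read for motifs of factors known in blood cells and of the zinc response. RefSeq gave a promoter for 84 of the 127 members, taken as 250 bases before to 50 after the annotated start on GRCm38.p6, and 10 motifs were searched on both strands. The PU.1-type motif GAGGAAGT occurred in 5 of the 84 promoters, 5.95%, against 2.95% of 7649 promoters of tested genes and 3.28% of all 27025 promoters. Among genes that met the same level, ratio and overlap conditions but were lower in control than at 0 h by more than 0.7, it occurred in 9.52% of 105 promoters, and among those higher by more than 0.7 in 4.0% of 100. The promoter of Spi1 was not among the 84. The 3 promoters below show the motif in its setting, in capitals, since Spi1 was itself a member. They are those of Inpp5d at chr1:87620062-87620361 on the plus strand, Nr1d2 at chr14:18239057-18239356 on the minus strand and Lrrc8c at chr5:105519221-105519520 on the plus strand.
Inpp5d: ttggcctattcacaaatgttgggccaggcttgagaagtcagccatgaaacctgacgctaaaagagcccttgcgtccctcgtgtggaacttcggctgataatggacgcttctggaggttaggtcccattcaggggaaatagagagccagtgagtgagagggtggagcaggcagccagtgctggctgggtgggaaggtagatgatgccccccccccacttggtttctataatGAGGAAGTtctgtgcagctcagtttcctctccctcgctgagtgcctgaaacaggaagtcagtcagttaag
Nr1d2: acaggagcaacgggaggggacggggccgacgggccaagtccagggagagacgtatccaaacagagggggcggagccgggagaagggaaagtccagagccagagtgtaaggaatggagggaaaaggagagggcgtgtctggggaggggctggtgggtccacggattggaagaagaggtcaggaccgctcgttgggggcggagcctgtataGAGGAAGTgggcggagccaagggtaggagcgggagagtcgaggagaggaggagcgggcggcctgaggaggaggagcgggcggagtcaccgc
Lrrc8c: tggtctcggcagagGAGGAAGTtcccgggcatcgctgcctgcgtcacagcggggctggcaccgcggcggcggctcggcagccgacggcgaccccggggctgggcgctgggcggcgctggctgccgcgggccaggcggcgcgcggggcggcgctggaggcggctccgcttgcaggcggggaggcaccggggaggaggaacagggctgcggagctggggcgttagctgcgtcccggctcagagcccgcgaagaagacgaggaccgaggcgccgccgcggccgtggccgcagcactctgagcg
The motif began 20 bases before the RefSeq start in Inpp5d, 41 before it in Nr1d2 and 236 before it in Lrrc8c, in each on the strand of the gene. The other 2 promoters with the motif were those of 2900009J06Rik, on the opposite strand, and I830077J02Rik.

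The other 9 motifs gave shares on either side of those in other promoters. The letters TGCNCNC were searched as a loose form of the core of the metal response element bound by the zinc sensor MTF1. They occurred in 70.2% of member promoters and in 59.7% of promoters of tested genes, and 50.4% of all promoters hold them. Because the form is loose, these shares do not measure how often the element itself occurs. The GC box GGGCGG occurred in 69.0% of member promoters and 67.2% of promoters of tested genes. The GATA motif AGATAA occurred in 5.95% of member promoters and 6.16% of promoters of tested genes. The general ETS motif CCGGAAGT, which shares 6 letters with the PU.1-type motif but cannot match the same site, occurred in 2.38% of member promoters against 10.8% of promoters of tested genes. The E-box CACGTG occurred in 3.57% of member promoters and 11.3% of promoters of tested genes. The AP-1 motif TGANTCA occurred in 4.76% and 4.22%, the RUNX motif TGTGGT in 9.52% and 12%, and the CACCC motif CCACACCC in 3.57% and 3.67%, each given for members and then for tested genes. The CRE motif TGACGTCA was in no member promoter and in 3.86% of promoters of tested genes. Median GC content was 61.3% in member promoters and 61.0% in those of tested genes. These shares are descriptions, and no match says only that the letters were not in the window.

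Adhesion, matrix and cytoskeletal genes gave 13 members with log2 ratios of 0.82 to 2.36 and a median of 1.28. Itgb3, the beta 3 integrin of platelets and osteoclasts, had 15.15, 14.76 and 16.13 TPM under DTPA, 2.06, 2.06 and 2.41 TPM in the controls and 3.3 TPM at 0 h. The DTPA mean was 7.05 times the control mean, and the controls lay below 0 h.

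Gas2l1, which links actin filaments and microtubules, had 195.12, 219.29 and 218.37 TPM under DTPA, 76.65, 74.29 and 63.1 TPM in the controls and 48.6 TPM at 0 h. Plxnc1, the receptor of semaphorin 7A, had 169.5, 169.65 and 170.88 TPM under DTPA, 73.18, 70.46 and 77.2 TPM in the controls and 64.13 TPM at 0 h. The DTPA values of Plxnc1 were among the tightest of any member, with an SD of 0.757 TPM around a mean of 170.01 TPM. Matn1, which encodes the cartilage matrix protein matrilin 1, had 8.17, 11.74 and 10.16 TPM under DTPA, 1.56, 1.2 and 0.77 TPM in the controls and 0.51 TPM at 0 h.

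Cd151, a tetraspanin that partners integrins, and Psrc1, a spindle protein, were the members of the group closest to 0 h. Cd151 had 36.9, 45.86 and 42.61 TPM under DTPA, 20.65, 21.14 and 22.22 TPM in the controls and 32.9 TPM at 0 h. Psrc1 had 80.26, 88.39 and 89.12 TPM under DTPA, 48.46, 46.63 and 49.33 TPM in the controls and 66.3 TPM at 0 h. In both, 0 h lay between the control and the DTPA libraries. The remaining members were Igsf3, the hyaluronan receptor gene Layn, the desmosome gene Pkp2, Ecm1, the kinesin gene Kifc2 and Frmd6, with log2 ratios between 0.85 and 1.71.

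Membrane transport gave 8 members with log2 ratios of 0.83 to 2.34. Kcne3, a small subunit that changes the gating of potassium channels, had 87.82, 77.67 and 79.65 TPM under DTPA, 12.95, 15.9 and 17.12 TPM in the controls and 17.98 TPM at 0 h. The difference of means was 5.33-fold, the largest of the group. Both Slc7a8 and Slc7a6 encode light chains of amino acid exchangers that pair with the heavy chain encoded by Slc3a2. Slc7a8 had 172.16, 182.63 and 190.58 TPM under DTPA, 54.4, 53.75 and 53.32 TPM in the controls and 75.76 TPM at 0 h. Slc7a6 had 43.45, 44.56 and 46.87 TPM under DTPA, 17.93, 19.43 and 16.62 TPM in the controls and 11.52 TPM at 0 h. The pair differed in their course, since the controls were below 0 h for Slc7a8 and above it for Slc7a6.

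Slc26a2, a sulfate transporter, averaged 75.2 ± 1.76 TPM under DTPA and 26.5 ± 1.53 TPM in the controls (SD, n = 3 each), with 16.47 TPM at 0 h. Lrrc8c, a subunit of the volume-regulated anion channel, averaged 113 ± 1.73 TPM under DTPA and 49.4 ± 1.83 TPM in the controls (SD, n = 3 each), with 35.26 TPM at 0 h. Slc2a9, a urate carrier, the drug and glutathione exporter gene Abcc1 and the pyrophosphate carrier gene Ank had log2 ratios of 1.42, 1.19 and 0.83. No member of the group encodes a zinc transporter.

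Enzymes of metabolism, glycans and lipids made up 16 members with log2 ratios of 0.81 to 1.67 and a median of 1.14. Man2b1, the lysosomal alpha-mannosidase, averaged 76.9 ± 4.07 TPM under DTPA and 27.6 ± 2.06 TPM in the controls (SD, n = 3 each), with 18.36 TPM at 0 h. Aldh2, the mitochondrial aldehyde dehydrogenase, averaged 121 ± 5.26 TPM under DTPA and 53.1 ± 2.41 TPM in the controls (SD, n = 3 each), with 33.87 TPM at 0 h. Its neighbour Acad12, an acyl-CoA dehydrogenase gene, had 10.72, 11.56 and 11.77 TPM under DTPA, 3.21, 3.10 and 3.31 TPM in the controls and 1.79 TPM at 0 h. Aldh2 and Acad12 thus shared the order of the 3 groups, with control above 0 h by 0.63 and 0.59 on the log2 scale.

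Mri1, an enzyme of methionine salvage, had 26.87, 27.28 and 29.09 TPM under DTPA, 14.48, 15.19 and 12.13 TPM in the controls and 21.4 TPM at 0 h. Pomt2, which starts O-mannosyl glycans, had 7.76, 8.36 and 8.19 TPM under DTPA, 3.81, 4.07 and 4.32 TPM in the controls and 6.87 TPM at 0 h, and was the member least above 0 h under DTPA, by 0.21 on the log2 scale. Glycan enzymes in the group also included Man2a2, Ggta1, Extl3 and Pigc, with log2 ratios of 0.88, 1.48, 0.83 and 1.03. The lipid hydrolases Pnpla2, which starts the breakdown of stored fat, and Pnpla6 had log2 ratios of 0.81 and 1.15. The highest ratio of the group belonged to Ece1, the endothelin-converting protease, at 1.67 but from means of 5.18 TPM under DTPA and 0.937 TPM in the controls. Gchfr, P4htm, Zdhhc14 and Arsk completed the group with log2 ratios between 1.09 and 1.31.

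Immune receptors, ligands and NF-kB genes gave 7 members with log2 ratios of 0.87 to 1.53. Nfkb2, the precursor of the p52 subunit, had 24.35, 29.37 and 28.79 TPM under DTPA, 13.21, 13.32 and 12.58 TPM in the controls and 11.78 TPM at 0 h. Nfkbie, which encodes the inhibitor IkB epsilon, had 9.38, 9.11 and 9.60 TPM under DTPA, 2.76, 3.55 and 2.92 TPM in the controls and 1.61 TPM at 0 h. A subunit and an inhibitor were thus both members, and the rule itself asked for higher DTPA values with no overlap. Exons of Nfkb2 share 299 bp with Psd on the other strand, which had means of 0.07 TPM under DTPA and 0.03 TPM in the controls, and 531 bp with a noncoding RNA on the other strand.

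Tnfaip8, known as a regulator of cell death in blood cells, averaged 47.5 TPM under DTPA, the highest of the group, with a log2 ratio of 1.53. Flt3l, the ligand of the progenitor receptor FLT3, had 19.2, 19.01 and 22.4 TPM under DTPA, 8.87, 10.83 and 10.45 TPM in the controls and 16.19 TPM at 0 h. Here 0 h again lay between the control and the DTPA libraries. Cd274, the gene of PD-L1, Cd200r1 and Ly96, the partner of TLR4, had log2 ratios of 0.87, 1.37 and 1.05 at means of 5.44 to 9.10 TPM under DTPA.

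Growth control genes gave 7 members within a narrow band, with log2 ratios of 0.82 to 1.33. Twsg1, a secreted BMP-binding protein, had 168.53, 159.06 and 168.52 TPM under DTPA, 64.08, 64.48 and 66.66 TPM in the controls and 43.48 TPM at 0 h. Txnip, which binds thioredoxin and restrains glucose uptake, had 141.17, 140.07 and 142.31 TPM under DTPA, 62.79, 61.43 and 60.91 TPM in the controls and 55.7 TPM at 0 h. Both groups of Txnip were tight, and 606 of its 3123 bp of exon overlap Gm15441 on the other strand, which had means of 0.857 TPM under DTPA and 0.91 TPM in the controls. Tgfbr1, a TGF-beta receptor, had 24.79, 23.66 and 23.3 TPM under DTPA, 12.19, 11.52 and 13.01 TPM in the controls and 15.25 TPM at 0 h. Zmat3, an RNA-binding target of p53, had 40.1, 42.41 and 42.94 TPM under DTPA, 22.86, 23.39 and 23.41 TPM in the controls and 25.78 TPM at 0 h.

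The related genes Frat1 and Frat2, whose products bind GSK3 in Wnt signalling, are neighbours in the genome. Frat1 had 96.38, 98.3 and 99.68 TPM under DTPA, 43.8, 48.27 and 38.09 TPM in the controls and 44.02 TPM at 0 h. Frat2 had 117.44, 117.96 and 127.73 TPM under DTPA, 57.02, 54.74 and 48.6 TPM in the controls and 61.47 TPM at 0 h. Control replicate 3 was the lowest control for both, and the log2 ratios were 1.16 each. St7, a candidate tumor suppressor, had a log2 ratio of 0.84.

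Vesicle genes were Stx1a, Ap1s3 and Rabac1, and a further 14 coding members had no shared role. Stx1a, a SNARE of neurotransmitter release, averaged 34.3 ± 4.18 TPM under DTPA and 9.69 ± 1.45 TPM in the controls (SD, n = 3 each), with 5.90 TPM at 0 h. Nrgn, which encodes the calmodulin-binding protein neurogranin, was the most abundant coding member outside the signalling and transcription groups. It had 617.62, 670.11 and 665.77 TPM under DTPA, 363.79, 346.68 and 315.63 TPM in the controls and 425.88 TPM at 0 h. Ly6g6d, a Ly6 family gene, had 6.49, 6.77 and 5.46 TPM under DTPA and 0.56, 0.44 and 0.15 TPM in the controls, and was listed at 0 at 0 h. The predicted gene I830077J02Rik had 29.75, 25.83 and 31.82 TPM under DTPA, 5.11, 6.34 and 6.87 TPM in the controls and 6.02 TPM at 0 h. The rest were Dbndd2, Klhdc8b, Smim24, Prrg2, Nxpe3, Oaf, Gpank1, Znrf1, Tmem144, Smim13 and Rimbp3, with log2 ratios between 0.94 and 1.91.

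There were 27 noncoding or unannotated members, among them 6 lincRNA genes and 7 pseudogenes. The most abundant was mt-Rnr2, the 16S ribosomal RNA of mitochondria, with 1643.09, 1417.96 and 1399.64 TPM under DTPA, 674.07, 695.02 and 707.28 TPM in the controls and 832.47 TPM at 0 h. Its 12S partner mt-Rnr1 had 2682.19, 2347.84 and 2289.71 TPM under DTPA, 1059.96, 1112.01 and 1156.06 TPM in the controls and 322.3 TPM at 0 h, so it was no member because of its low 0 h value. In limma mt-Rnr1 rose under DTPA by 1.13 ± 0.067 (SE) on the log2 scale (adjusted p = 6.67e-06). The 13 mitochondrial messenger RNAs summed to 139851, 121852 and 125571 TPM under DTPA and 113810, 112316 and 128053 TPM in the controls, with overlapping ranges. The libraries select polyadenylated RNA, and the part of that selection in the values of ribosomal RNAs and of Rn7sk was not tested. Rn7sk, the 7SK RNA that holds an elongation factor inactive, had 31.21, 32.83 and 34.06 TPM under DTPA, 9.44, 11.91 and 12.40 TPM in the controls and 11.76 TPM at 0 h.

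The miRNA locus Mir142, typical of blood cells, gives rise to these mature forms, shown with the seed (bases 2 to 8) in capitals, from RefSeq on GRCm38.p6 at chr11:87756867-87756887 and chr11:87756903-87756925 on the plus strand.
mmu-miR-142a-5p: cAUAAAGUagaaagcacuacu
mmu-miR-142a-3p: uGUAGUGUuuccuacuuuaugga
Reads over the 64 bp locus had 331.77, 261.55 and 367.55 TPM under DTPA, 143.95, 174.13 and 163.04 TPM in the controls and 245.88 TPM at 0 h. The control libraries were all below 0 h and the DTPA libraries all above it. These reads come from longer RNA across the hairpin, not from the mature forms, and the host transcript Mir142hg, which was no member, had means of 266.7 TPM under DTPA and 172.4 TPM in the controls. Mir6999 lies within Dgkz on the same strand and had 131.71, 117.95 and 134.63 TPM under DTPA, 59.33, 28.11 and 39.26 TPM in the controls and 52.7 TPM at 0 h, so its reads cannot be told apart from those of Dgkz.

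Several of the largest ratios belonged to noncoding genes with few reads. Hbb-bh0, a pseudogene of the beta-globin cluster with 129 bp of exon, was listed at 4.45, 7.97 and 14.03 TPM under DTPA and at 0 in the 3 controls and at 0 h, on 4, 7 and 13 estimated reads. Gm48388 had 22.23, 8.96 and 13.07 TPM under DTPA, 0.77, 1.61 and 0 TPM in the controls and 1.59 TPM at 0 h. Platr32, which lies inside an intron of Alpk3 on the same strand, had 8.01, 5.96 and 10.6 TPM under DTPA, 0, 0 and 1.30 TPM in the controls and 0.86 TPM at 0 h. Alpk3 itself had means of 80.7 TPM under DTPA and 3.07 TPM in the controls, and reads of the pair cannot be told apart.

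Hist1h2al had 15.24, 16.46 and 9.44 TPM under DTPA, 2.43, 2.53 and 0 TPM in the controls and 1 TPM at 0 h. Gm8013 had 9.94, 8.26 and 15.67 TPM under DTPA, 2.14, 0.37 and 3.33 TPM in the controls and 1.10 TPM at 0 h. Gm14221 had 5.42, 5.29 and 5.51 TPM under DTPA and 0.39, 0.41 and 1.03 TPM in the controls, and was listed at 0 at 0 h. Of the 125 members with an exon length, and so a read estimate, 12 had under 50 estimated reads in a DTPA library. The growth-associated RNA Zfas1, host of small nucleolar RNAs, was better covered, with means of 137 ± 7.98 TPM under DTPA and 62.1 ± 2.72 TPM in the controls (SD, n = 3 each) and 44.24 TPM at 0 h. The remaining noncoding or unannotated members had log2 ratios between 0.80 and 1.94.

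Some members were neighbours in the genome, and 11 pairs lay within 100 kb of each other. No such count was made for other tested genes, so the number does not measure clustering. Laptm5 and Matn1 lie 8243 bases apart on the same strand of chromosome 4, with Matn1 at chr4:130944385-130955475, and both were among the 12 members with the largest ratios. Aldh2 and Acad12 lie 2950 bases apart on the same strand of chromosome 5, and Pnpla2 and Cd151 6648 bases apart on the same strand of chromosome 7. Frat1 and Frat2 lie 13388 bases apart on opposite strands of chromosome 19, Spi1 and Madd 21603 bases apart on opposite strands of chromosome 2, and Zswim4 and Mri1 12850 bases apart on the same strand of chromosome 8. Mir6999 lies inside Dgkz and Gm38228 inside Nck2. Wider pairs were Ly6g6d with Gpank1, Arhgef1 with Rabac1 and Prrg2 with Flt3l, at 43389, 43157 and 67110 bases. Exons of 34 members overlapped another gene on the other strand and those of 9 on the same strand, and the strand setting of the counting is not given in the sources used here.

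Close relatives of the members were mixed in their response. In 23 families chosen after the members were known, 80 relatives were looked up, of which 38 could be tested, 41 were under the filter on low values and 1 had no row. In limma 16 of the 38 were higher, 11 lower and 11 not past the threshold of 0.05, where 21.7% of all tested genes were higher and 36.4% lower. The 16 became 9, 10 and 7 without control replicate 2, DTPA replicate 2 and DTPA replicate 3, and the 11 lower became 7 with median-of-ratios scaling. The largest fall among the 38 was in a relative of Arhgdib. Arhgdig fell under DTPA to 54.0 ± 1.09 TPM, against 203 ± 4.17 TPM in the controls (SD, n = 3 each), a log2 change of -1.89 ± 0.038 (SE, limma adjusted p = 6.70e-08). Arhgdia averaged 538 ± 54.1 TPM under DTPA and 620 ± 14.9 TPM in the controls (SD, n = 3 each), with an adjusted p of 0.0383 in limma. That call was lost in 9 alternative settings, leaving out any 1 control among them, with adjusted p of 0.0514 to 0.294.

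Relatives of Mllt3, Inpp5d and Laptm5 differed by less than 0.4 on the log2 scale in either direction. Mllt1, the gene of the related reader ENL, fell by 0.39 on the log2 scale (limma adjusted p = 0.00301). Inppl1, the gene of the widely expressed SHIP2, averaged 33.4 ± 2.18 TPM under DTPA and 31.3 ± 1.26 TPM in the controls (SD, n = 3 each; limma adjusted p = 0.247). Laptm4a averaged 152 ± 7.55 TPM under DTPA and 140 ± 2.63 TPM in the controls (SD, n = 3 each; limma adjusted p = 0.0682). Of the channel subunits beside Lrrc8c, Lrrc8b fell by 0.45 on the log2 scale (limma adjusted p = 1.49e-04). Nck1 rose by 0.27 (limma adjusted p = 0.00176), less than the 1.24 of Nck2.

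The light chain Slc7a5 and the heavy chain Slc3a2 were lower under DTPA, unlike Slc7a8 and Slc7a6. Slc3a2 fell to 180 ± 6.44 TPM under DTPA, against 281 ± 4.91 TPM in the controls (SD, n = 3 each), a log2 change of -0.64 (limma adjusted p = 8.30e-06). Slc7a5 fell by 0.32 on the log2 scale (limma adjusted p = 0.00149). Arrdc3, a relative of Txnip, fell by 0.78 (limma adjusted p = 8.24e-05).

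In other families a relative rose as well. Itgb2, the beta integrin of white blood cells, rose to 65.8 ± 1.52 TPM under DTPA, against 14.3 ± 0.473 TPM in the controls (SD, n = 3 each), a log2 change of 2.12 (limma adjusted p = 1.01e-07), and stood at 5.10 TPM at 0 h. Itgb1 rose by 0.50 on the log2 scale (limma adjusted p = 1.01e-04). Btk, a Tec family kinase of B cells and myeloid cells, rose by 1.12 (limma adjusted p = 1.74e-05) with 49.22 TPM at 0 h, above both groups at 24 h. Relb, the partner of p52, rose by 1.36 (limma adjusted p = 4.05e-05) and Jun by 1.35 (limma adjusted p = 1.03e-05). Grap2 rose by 1.33 (limma adjusted p = 2.77e-04) at low level, and met the filter only through its DTPA libraries. It averaged 2.15 ± 0.13 TPM under DTPA and 0.25 ± 0.09 TPM in the controls (SD, n = 3 each), both below the 8.97 TPM at 0 h. Grb2 averaged 82.6 ± 1.5 TPM under DTPA and 86.7 ± 1.70 TPM in the controls (SD, n = 3 each, limma adjusted p = 0.163).

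**Figure D4:**
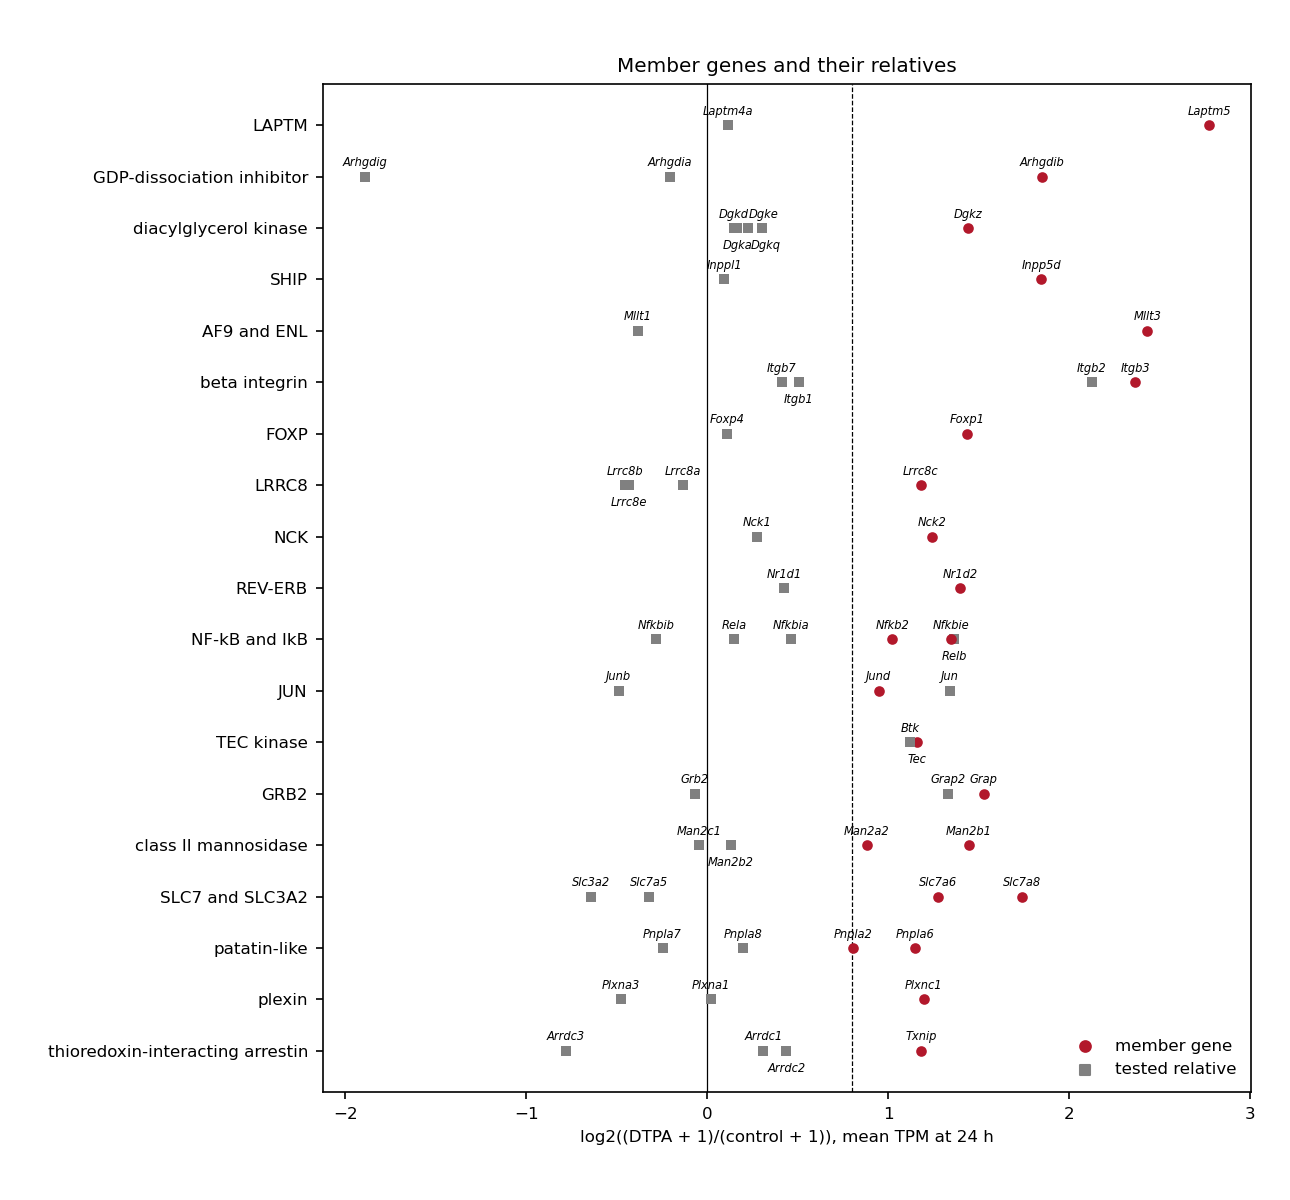
For families with at least 1 tested relative, the log2 ratio of mean TPM with 1 added under DTPA to that in the controls is shown for member genes (red circles) and tested relatives (grey squares). The dashed line marks the minimum of 0.8 that the rule asked of members; Itgb2, Relb, Jun, Btk and Grap2 lie beyond it as relatives, and Arhgdig lies at -1.89.

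The wider pathways were read from 16 lists with the members set aside. Across the lists limma called 115 of 308 genes higher under DTPA, 37.3%, and 113 lower, 36.7%, against 21.7% and 36.4% of all tested genes. With median-of-ratios scaling, which moved the median of all tested genes to 0.01 from the -0.09 of the deposited scale and the higher share of all calls to 50.0% from 37.3%, those counts were 137 and 91. Of 33 tested actin, small GTPase and adhesion genes, 17 rose (51.5%) and 12 fell (36.4%, the share of all tested genes), with a median log2 change of 0.16. Vav1, the exchange factor of blood cells for Rac, rose to 108 ± 4.63 TPM under DTPA, against 13.8 ± 0.89 TPM in the controls (SD, n = 3 each; limma adjusted p = 6.70e-08), with 59.32 TPM at 0 h. Arhgap9, a GTPase-activating protein, rose by 1.59 on the log2 scale (limma adjusted p = 5.84e-06).

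Of 8 tested megakaryocyte and platelet genes, 7 rose and 1 fell (87.5% and 12.5%, against 21.7% and 36.4% of all tested genes), with a median of 0.98. Gp1ba, a subunit of the von Willebrand factor receptor, rose by 1.76 (limma adjusted p = 3.47e-05), Nbeal2, needed for platelet granules, by 1.60 (limma adjusted p = 1.57e-05) and Plek, the protein kinase C substrate of platelets, by 1.43 (limma adjusted p = 2.17e-05). Of 14 NF-kB and TNF genes, 6 rose and 3 fell (42.9% and 21.4%), with a median of 0.26. The 6 became 3 without control replicate 1 or DTPA replicate 2, and 2 without DTPA replicate 3 or with a filter of 5 TPM. Beside Relb, the adhesion gene Icam1 rose by 1.15 (limma adjusted p = 6.04e-04). Of 16 immediate early and AP-1 genes, 7 rose and 4 fell (43.8% and 25%), with a median of 0.21; the 7 became 4 without DTPA replicate 1 and the 4 became 2 with median-of-ratios scaling or quantile normalization. Egr1 rose to 32.6 ± 1.45 TPM under DTPA, against 7.43 ± 0.319 TPM in the controls (SD, n = 3 each; limma adjusted p = 2.84e-07), a value close to the 36.53 TPM at 0 h.

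Of 28 tested p53 targets, 15 rose and 4 fell (53.6% and 14.3%, against 21.7% and 36.4% of all tested genes), with a median of 0.25. Bbc3, the gene of the proapoptotic protein PUMA, which lay just outside the flat window, rose by 0.93 (limma adjusted p = 2.41e-04), and Eda2r by 0.84 (limma adjusted p = 4.17e-05). Of 21 cell cycle inhibitors and quiescence genes, 12 rose and 6 fell (57.1% and 28.6%), with a median of 0.30; Pdcd4 rose by 1.02 and Rbl1 fell by 2.14. Of 16 proapoptotic genes, 8 rose and 4 fell (50.0% and 25%), and the 8 became 5 without control replicate 2 or DTPA replicate 3. Of 38 lysosome and autophagy genes, 19 rose and 11 fell (50.0% and 28.9%), with a median of 0.13, led by the autophagy gene Atg2a at 0.99; the 11 became 7 with median-of-ratios scaling and 6 with quantile normalization. Under quantile normalization the log2 changes of Lamp1, Rac1, Rac2, Cdkn1b and Bcl2l1 took the other sign and did not pass.

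Of 12 TGF-beta and BMP genes, 3 rose and 2 fell (25% and 16.7%, against 21.7% and 36.4% of all tested genes). The 2 that fell, Acvr2a and Id1, both lost the call without control replicate 1, control replicate 2, DTPA replicate 2 or DTPA replicate 3, with no filter and under either other scaling, and 1 was left without control replicate 3, without globin genes, with the replicate block or with a filter of 5 TPM. With median-of-ratios scaling 6 genes of the list were higher, and 5 with quantile normalization. Tgfb1 rose to 155 ± 14.4 TPM under DTPA, against 73.5 ± 1.85 TPM in the controls (SD, n = 3 each; limma adjusted p = 1.05e-05), and Bmpr2 rose by 0.86 (limma adjusted p = 1.03e-05). Notch and Wnt genes were split, with 2 higher and 3 lower of 13 (15.4% and 23.1%), and so were calcium and channel genes, with 6 higher and 6 lower of 17 (35.3% each). The 2 Notch and Wnt genes became 1 without DTPA replicate 1, 2 or 3 or with a filter of 5 TPM, 4 without control replicate 3 or with no variance trend, and 5 under either other scaling. Hypoxia and glycolysis genes gave 8 higher and 11 lower of 25 (32.0% and 44.0%), and zinc transporters and metallothioneins 5 and 9 of 19 (26.3% and 47.4%). Interferon response genes gave 3 and 4 of 11 (27.3% and 36.4%), near the shares over all genes, with 5 higher when no filter was set. The ATF4 and lipid lists, which hold no member, were mostly lower, with 12 of 18 ATF4 targets lower (66.7%) and 23 of 30 cholesterol and lipid genes lower and 5 higher (76.7% and 16.7%). The 5 became 3 without DTPA replicate 1, 2 or 3 or with a filter of 5 TPM. The median log2 changes of those lists were -0.29 and -0.58, against -0.09 over all tested genes.

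Set beside genes that met the same level, ratio and overlap conditions, the members differed in where DTPA left them relative to 0 h, which the rule fixes. There were 151 such genes with control more than 0.7 below 0 h and 149 with control more than 0.7 above it. The median log2 ratio of DTPA to control was 1.17 in the members, 1.21 in the first set and 1.17 in the second. The median log2 ratio of DTPA to 0 h was 1.27 in the members, -0.43 in the first set and 3.04 in the second. All 127 members were above 0 h under DTPA, as were 50 of the 151 and all 149. Median DTPA levels were 25.1 TPM in the members, 17.1 TPM in the first set and 52.4 TPM in the second. Protein-coding genes made up 78.7% of the members, 82.8% of the first set, 79.2% of the second and 80.1% of all tested genes. Median exon length was 3622, 3670, 2895 and 3776 bp in the same order.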

How the data were processed

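Libraries of 7 cultures were made with the TruSeq stranded mRNA kit, per the labels' protocols. The submitters' processing notes name Trimmomatic 0.33, FastQC, HISAT2 2.1.0, featureCounts and edgeR with the build mm10. Annotation release, lengths and strand setting are not given in the sources used here. What the authors deposited is TPM per gene symbol, in which abundant genes that rise lower all others. Values of 114 repeated symbols among 55487 rows were summed. Depth was estimated from low values and GENCODE M21 exon lengths, which made 99.1% to 99.4% of low values whole reads within 0.1.

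DTPA was compared with control at 24 h by limma (version 3.58.1, under R 4.3.3) on log2 values of TPM with 1 added, for genes that reached 1 TPM in 3 or more of the 6 libraries. The test was two-sided, with a variance trend, Benjamini-Hochberg adjustment and a threshold of 0.05, and was tested on simulated data. The log scale understates changes of low genes.

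The members, role groups, families, 16 gene lists and 7 marker lists were chosen with earlier results of these data known. Values per library are given for the 12 members with the largest ratio, the 12 with the highest level, the 5 highest and 5 lowest over 0 h and those on a list; from each list up to 3 genes with the largest changes past the threshold were eligible. Other genes were named after their values were seen, and the values of 1 member are not reported here. Alternatives were other pseudocounts, filters, scalings and rule limits, a replicate block and leaving out each replicate.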

Additional observations from a re-analysis of the deposited data

How the results depend on the processing

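The number of members was 88 to 187 under most settings of the rule, 197 under median-of-ratios scaling (115 shared with the 127; the cause was not tested) and 236 with the looser minimum ratio of 0.6. Leaving out each replicate gave 126 to 143 members. Asking for at least 50 estimated reads in each DTPA library, an alternative chosen after seeing the data, left 113 of the 125 with a read estimate. The median log2 ratio of the members was 1.29 under median-of-ratios scaling and 1.32 under quantile normalization, against 1.17 as reported, and 1.15 to 1.204 when each replicate was left out. Over all genes 2415 were higher and 4059 lower under DTPA. The counts were 3190 and 3189 with median-of-ratios scaling, 3190 and 3112 with quantile normalization, and 1918 to 2312 higher and 3653 to 3909 lower when each replicate was left out. Members past the threshold numbered 118 to 127 across settings. The 118 came with a filter of 5 TPM, which kept some low members out of the fit. When each replicate was left out, 123 to 126 passed. Other list genes then numbered 94 to 107 higher and 102 to 108 lower, against 115 and 113.

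The sign changed under quantile normalization for Bcl2l1 (0.0469), Cdkn1b (0.00704), Lamp1 (-0.0274), Rac1 (0.00719) and Rac2 (-0.0827), none of them past the threshold there; the cause was not tested. Deviations of same-numbered control and DTPA cultures correlated at -0.0103, 0.0242 and -0.0096, and those of differently numbered cultures at -0.0372 to 0.0455. Whether same-numbered cultures were started together is not given in the labels, and these values cannot decide it. With the replicate number as a block, 2274 genes were higher and 3888 lower. Genes near the 5 TPM limit rest on few reads where they are short, which limits the precision of the low noncoding members, and the single 0 h library gives the flat window no replicate error.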
